A study of Mus musculus with 7 samples.

Results

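The miR-15/16 seed family was examined on 7 one-colour arrays of mouse CD4 T cells. Members were the probes whose target carries the same bases 2 to 8 as the target of probe UC1005463, which matched miR-322-5p. The rule found 17 of the 1874 non-control probes. The target of 8 of these equalled or began a mature mouse miRNA of the reference table, and together they covered 6 miRNAs: miR-15a-5p, miR-15b-5p, miR-16-5p, miR-195a-5p, miR-322-5p and miR-497a-5p. The remaining 9 probes carried the seed with 1 to 4 substitutions elsewhere and matched no mouse entry, and they are called variant probes below.

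A microRNA guides an Argonaute protein to messenger RNAs, mainly by pairing of its bases 2 to 8, the seed, so miRNAs with a common seed can share targets. The miR-15/16 family is known for repressing cyclins, cyclin-dependent kinases and BCL2, and the Mir15a and Mir16-1 locus is the one lost in many chronic lymphocytic leukaemias. In mice its members come from separate clusters, in which neighbouring hairpins can be cut from a shared primary transcript. miR-322 is the mouse counterpart of human miR-424 and lies in an X chromosome cluster with miR-503.

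Mature sequences are given because all members share the seed and are told apart only by the bases outside it. They are from RefSeq on GRCm38.p6, 5′ to 3′, with bases 2 to 8 in capitals:
miR-15a-5p: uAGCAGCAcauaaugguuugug
miR-15b-5p: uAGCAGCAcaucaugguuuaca
miR-16-5p: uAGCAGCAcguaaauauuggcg
miR-195a-5p: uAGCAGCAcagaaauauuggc
miR-322-5p: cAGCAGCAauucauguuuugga
miR-497a-5p: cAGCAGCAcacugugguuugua

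miR-16-5p is encoded at chr14:61631936-61631957 on the minus strand (Mir16-1) and at chr3:69009918-69009939 on the plus strand (Mir16-2). miR-15a-5p lies beside the former at chr14:61632075-61632096 on the minus strand, and miR-15b-5p beside the latter at chr3:69009775-69009796 on the plus strand. The Mir15b and Mir16-2 hairpins together spanned 225 bases. miR-195a-5p, at chr11:70235062-70235082, and miR-497a-5p, at chr11:70234730-70234751, are both on the plus strand, and their hairpins spanned 419 bases. miR-322-5p lies at chrX:53054306-53054327 on the minus strand. Outside the seed, miR-16-5p and miR-195a-5p differed only by G10A and U11G over the length of miR-195a-5p, counted from 1 at the 5′ end, and miR-15a-5p and miR-15b-5p by 4 substitutions.

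All cells carried the DO11.10 receptor, specific for a peptide of ovalbumin, on the Balb/c background. Naive cells (2 arrays) were sorted as CD25- CD44 low from DO11.10 mice labelled Rag2+/+. WT host cells (2 arrays) and sOVA host cells (3 arrays) were sorted as CD44 high, 5 days after DO11 Rag2-/- donor cells had been moved into a WT Balb/c or an sOVA host. The hosts had been immunized 24 h after transfer with LPS-preactivated dendritic cells, grown from bone marrow, that carried Ova peptide. Titles name the WT host arrays as OVA immunized and the sOVA host arrays as sOVA immunized, so host and any difference in immunization cannot be told apart. Naive and host cells also differed in transfer, in donor Rag2 genotype and in the sort, so activation cannot be told apart from these. The naive arrays too have a source name that speaks of in vivo activation. Mice were 6 to 8 weeks old, spleen and lymph node cells of several mice were pooled, and no label states whether replicates came from separate pools. The p-values therefore measure the spread between these arrays, which may be technical, and the number of arrays limits their precision. In such bulk RNA, fewer cells carrying a miRNA and less miRNA per cell cannot be told apart.

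Each probe had 7 spots per array. A probe counted as detected on an array where at least 50% of its spots were well above background, which held for 309 to 467 probes. The dim arrays were replicate 2 of the WT host and replicate 3 of the sOVA host, with 75th percentile intensities of 3591 and 2729 over the 253 probes detected on all arrays, against 9281 to 15743 on the other 5. Levels are log2 values relative to that percentile on the same array, so 0 is the percentile itself. Hybridization differs between probes, so levels are compared between arrays for one probe and not between probes. All 5 targets that matched the lymphocyte list (miR-142a-3p, miR-142a-5p, miR-181a, miR-155 and miR-146a) were detected on all 7 arrays. Of these, miR-181a was called lower in the WT host (-3.34, adjusted p = 0.0127 in limma), and miR-155 and miR-146a were called higher in the sOVA host (4.05 and 4.08, adjusted p = 0.0216 and 0.017).

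Of the 17 family probes, 8 were detected on all 7 arrays and 3 on none. After probes with nested targets were merged there were 15 targets, of which 11 could be tested because at least 1 group detected them on all of its arrays. They were fitted with limma beside 333 other features.

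miR-322-5p was lower in both hosts than in naive cells. It was the member with the largest measured difference in either comparison with naive cells, though its host signals were near background. Its level was -2.66 and -2.75 in naive cells, -6.64 and -6.36 in the WT host, and -6.79, -6.98 and -6.47 in the sOVA host. Both naive arrays lay above every host array, and the 2 kinds of host overlapped. In unscaled intensity, miR-322-5p gave 1877 and 2342 in naive cells, 93.0 and 43.7 in the WT host, and 89.1, 87.8 and 30.7 in the sOVA host.

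The difference of WT host minus naive was -3.80 on the log2 scale (SE 0.29, 95% interval -4.51 to -3.08), or 13.9-fold lower, with an adjusted p of 0.00119 in limma with Benjamini-Hochberg adjustment over 344 features. In the sOVA host it was -4.04 (SE 0.27, interval -4.69 to -3.40), or 16.5-fold lower, with an adjusted p of 0.000939. These folds rest on signals near background in the hosts, where the probe was detected on 1 of 2 WT host arrays and on 1 of 3 sOVA host arrays. The probe was tested only because both naive arrays detected it. With normexp background correction the folds were 7.27 and 8.03, and with each array scaled to the 75th percentile of all probes they were 19.8 and 29.1. Since 309 to 467 of 1874 probes were detected per array, that percentile lies near the edge of detection. The call was made in both comparisons under all 18 alternatives that tested the probe. The alternative with only features detected on all arrays could not test it.

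Slide position did not coincide with the groups. Within slide row 1, miR-322-5p differed from naive by -3.98 in the WT host and by -4.23 in the sOVA host, and within row 2 by -3.61 and -3.73. Both dim arrays lay in row 2, as its only host arrays, so row and brightness cannot be told apart among the hosts. The measured difference was of similar size in each row and without either dim array. Without both of them it was -3.94 and -4.18, an alternative added after the data had been seen. In row 2 neither host array detected the probe, so the differences there set naive cells against background signal.

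Across the family, 2 of the 11 tested targets were called lower and 0 higher in each comparison with naive cells. Both called targets, miR-322-5p and the variant probe UC1005615, were tested only because both naive arrays detected them. They differ by 1 substitution and followed each other over the 7 arrays at r = 0.94. Whether they are 2 separate signals was not tested. The 11 targets include variant probes, which matched no mouse entry, so they cannot be counted as 11 separate miRNAs. In the WT host 5.81% of all features were called lower and 13.1% higher (18.9% in all), and in the sOVA host 5.81% and 15.7% (21.5% in all). The median difference of the 11 targets was -0.30 in the WT host, beside 0.27 over all 344 features, and 0.06 in the sOVA host, beside 0.12. In the WT host 8 of the 11 lay clear of naive, all of them lower, where 75.6% of all features lay clear and 31.1% were clear and lower. In the sOVA host 2 of 11 lay clear and lower, beside 61.6% and 29.4%. Below 0 were 9 of the 11 in the WT host and 4 of 11 in the sOVA host, beside 41% and 47.1% of all features. The comparisons share the naive arrays.

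The second target called was the variant probe UC1005615, which is printed because its target departs from miR-322-5p only by G21A, near the 3′ end (mouse base first, target written as DNA):
UC1005615: cAGCAGCAattcatgttttgaa

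Its level was -5.03 and -5.35 in naive cells, -9.12 and -8.38 in the WT host, and -8.06, -9.36 and -7.34 in the sOVA host. It was detected on both naive arrays and on no host array. The naive mean was thus at least 2.87-fold above the WT host and at least 1.77-fold above the sOVA host. Each such bound sets the bright group's mean against the lowest signal that counted as well above background on the dim arrays, or the probe's own signal where that was higher. The measured differences were -3.56 (SE 0.67, adjusted p = 0.0145, limma) and -3.06 (SE 0.61, adjusted p = 0.0216). The call was lost with normexp (adjusted p = 0.23 and 0.207) and with no detection filter (0.0522 and 0.0527). It was also lost in the WT host without any 1 of the 4 naive and WT host arrays, and in the sOVA host without naive replicate 1 or 2 or sOVA host replicate 1. It was tested only because the naive arrays detected it. Whether its difference was as large as that of miR-322-5p could not be tested on host arrays at background.

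miR-322 is cut from a cluster on the X chromosome that also gives miR-503, miR-542, miR-450a and miR-450b, of which 6 listed hairpins spanned 6353 bases at chrX:53047997-53054349. Of 11 other mature miRNAs named for this cluster, miR-351 included, 9 matched a probe and none of the 9 was detected on any host array. Both naive arrays detected 2 of them, naive replicate 2 alone detected 4, and 3 were detected on no array. Only miR-450a-5p and miR-503-5p could be tested.

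miR-450a-5p gave -5.79 and -6.23 in naive cells, -9.39 and -8.38 in the WT host, and -8.12, -9.36 and -7.48 in the sOVA host. Every host array was below both naive arrays, but no host array detected it, so the host values are background signal and it was tested only because both naive arrays detected it. It was called lower in both hosts, at -2.88 (SE 0.67, adjusted p = 0.0302) and -2.31 (SE 0.61, adjusted p = 0.0412), with naive at least 1.63-fold and at least 1.00-fold higher. The calls were lost with no detection filter (adjusted p = 0.177 and 0.0756) and with normexp, where the folds were 1.82 and 2.01 (adjusted p = 0.445 and 0.333). They held in 11 and 9 of 18 alternatives, and in 2 and 1 of the 7 that left out 1 array.

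miR-503-5p, whose seed departs from the family's by A8G, gave -6.42 and -6.33 on the naive arrays and -9.34 to -6.00 on the host arrays, none of which detected it. The highest host value, that of the dim sOVA host replicate 3, lay above both naive arrays. The differences of miR-503-5p did not pass the test (-1.09, adjusted p = 0.467, and -1.45, adjusted p = 0.298). Without sOVA host replicate 3, miR-503-5p was called lower in the sOVA host (-2.36, adjusted p = 0.0287), as it was with the 75th percentile of all probes (-2.27, adjusted p = 0.0297). The opposite arm of the miR-322 hairpin, miR-322-3p, gave -7.30 and -7.15 on the naive arrays, was detected on 1 of them and was not tested.

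Markers of other cells were examined beside the lower level of miR-322-5p in the hosts. miR-223-3p, a myeloid miRNA and the only one on that list, summed to 12.1% to 14.3% of the 75th percentile signal on the naive arrays, 1.24% to 2.08% on the WT host arrays and 1.03% to 3.16% on the sOVA host arrays. It was called lower in both hosts, at -3.04 (adjusted p = 0.0158) and -2.68 (adjusted p = 0.0216). Of 6 epithelial targets, 2 of them for miR-200b-3p, 4 were tested and 2 were called lower in the WT host and 1 in the sOVA host. Those called, miR-200a-3p in both hosts and miR-200b-3p in the WT host, were detected on no host array. They were tested only because both naive arrays detected them. miR-200c-3p (-0.12 and 0.19) and miR-141-3p (-0.94 and -0.91), detected in both hosts, were not called. The epithelial sum was 6.62% to 7.07%, 3.60% to 3.75% and 4.11% to 6.42%, partly background signal in the hosts, with miR-429-3p detected on no array. The erythroid sum was 28.0% to 51.3%, 10.1% to 29.0% and 5.91% to 192%, with miR-144-3p detected on no array and 0 of 1 tested targets called. The endothelial miR-126a-3p was not tested, and its level was at most 1.72% on any array. The part of these cells in the miR-322-5p result was not tested.

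Outside the family, the features whose level followed that of miR-322-5p most closely over the 7 arrays were miR-26b-5p (Pearson r = 0.942), miR-92b-3p (r = 0.927), miR-350-3p (r = 0.924) and the unmatched probes UC1006152 (r = 0.921) and UC1004884 (r = 0.896). They come from 208 features detected on all arrays, the points are the same 7 libraries in 3 groups, and the values are a description.

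miR-15a, miR-15b and miR-16, the members for which the family is best known in lymphocytes, were detected on every array, and none was called in either host. miR-16-5p, the member with the brightest probe, gave 2.62 and 2.54 in naive cells, 2.45 and 2.28 in the WT host, and 3.02, 3.07 and 1.82 in the sOVA host. The WT host arrays lay just below the naive arrays, while the sOVA host arrays lay on both sides of them. The differences were -0.21 (95% interval -1.36 to 0.93, adjusted p = 0.755) and 0.06 (interval -0.99 to 1.103, adjusted p = 0.917). These intervals still allow a change of about 1 log2 unit either way.

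miR-15b-5p, the partner of Mir16-2 on chromosome 3, gave 1.96 and 1.65 in naive cells, 2.13 and 1.75 in the WT host, and 2.53, 2.78 and 1.43 in the sOVA host. The groups overlapped in both comparisons. It differed by 0.13 in the WT host (interval -1.06 to 1.33, adjusted p = 0.835) and by 0.44 in the sOVA host (interval -0.65 to 1.54, adjusted p = 0.482).

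miR-15a-5p, the partner of Mir16-1 on chromosome 14, gave 0.30 and 0.30 in naive cells, 0.27 and -0.24 in the WT host, and 0.68, 0.31 and -0.75 in the sOVA host. Its differences were -0.28 (interval -1.52 to 0.95, adjusted p = 0.696) and -0.22 (interval -1.35 to 0.90, adjusted p = 0.736). Its 2 probes, of 21 and 22 bases, followed each other over the 7 arrays at r = 0.95.

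For these 3 miRNAs sOVA host replicate 3, a dim array, was the lowest of all 7, while sOVA host replicates 1 and 2 were above every naive array. Within slide row 1, miR-16-5p was 0.42 above naive in the sOVA host. Within row 2, which held that dim array, it was 0.71 below (-0.71). Without sOVA host replicate 3, miR-15b-5p was called higher than naive in the sOVA host, at 0.85 (adjusted p = 0.0463), and miR-15a-5p and miR-16-5p were not called. Neither miR-15a-5p nor miR-16-5p was called under any of 19 alternatives. The sign of the miR-16-5p difference in the sOVA host turned with the scaling, from 0.06 to values between -0.76 and -0.04, and that of miR-15b-5p ranged from -0.37 to 0.74 over the scalings.

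Ratios of 2 probes on the same array do not depend on scaling between arrays. The log2 ratio of miR-322-5p to miR-16-5p was -5.28 and -5.29 on the naive arrays and between -10.06 and -8.30 on the 5 host arrays, a mean gap of 3.90. The ratio of miR-322-5p to miR-15a-5p was 3.70 higher on average in naive cells, and that to miR-15b-5p was 4.26 higher. Each of these 3 ratios put both naive arrays above all host arrays, of which 2 detected miR-322-5p.

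Smaller gaps separated miR-15b-5p from miR-16-5p and miR-15a-5p. miR-16-5p relative to miR-15b-5p was 0.66 and 0.89 on the naive arrays and 0.29 to 0.53 on the host arrays, with a mean gap of 0.37. miR-15a-5p relative to miR-15b-5p was -1.67 and -1.35 on the naive arrays and -2.48 to -1.85 on the host arrays, with a gap of 0.57. In each the naive arrays lay above every host array. miR-16-5p relative to miR-15a-5p overlapped between the groups (exact permutation p = 0.381). With 2 arrays against 5, an exact two-sided permutation test cannot go below 0.0952, which the 7 of 10 ratios without overlap reached (0.136 after Benjamini-Hochberg adjustment over the 10), so none could pass a threshold of 0.05.

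The opposite arms of these hairpins were near background. miR-15a-3p differed by 0.83 in the WT host (adjusted p = 0.306) and by 1.14 in the sOVA host (adjusted p = 0.138), and miR-16-1-3p by 0.80 (adjusted p = 0.311) and 1.05 (adjusted p = 0.157). Of 7 opposite arms named, 6 matched a probe, 2 were tested and 0 were called. Without sOVA host replicate 3, both were called higher in the sOVA host, miR-15a-3p at 1.58 (adjusted p = 0.0158) and miR-16-1-3p at 1.42 (adjusted p = 0.04). miR-15a-3p was called there in 4 of 18 alternatives and miR-16-1-3p in 1.

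miR-195a and miR-497a, which share the chromosome 11 cluster, were dim. miR-195a-5p gave -5.81 and -5.94 in naive cells, -7.20 and -7.07 in the WT host, and -4.92, -4.48 and -7.47 in the sOVA host. It was detected on both naive arrays, on no WT host array, and on sOVA host replicates 1 and 2, which lay above naive, but not on replicate 3, which was the lowest of the 7. The naive arrays did not overlap with the WT host, and naive was at least 1.72-fold higher. The measured difference of -1.26 did not pass the test (interval -3.57 to 1.05, adjusted p = 0.369), and neither did that of 0.25 in the sOVA host (interval -1.86 to 2.36, adjusted p = 0.828).

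The result for miR-195a-5p rested on sOVA host replicate 3. Without it, miR-195a-5p was called lower than naive in the WT host (-1.26, adjusted p = 0.0105), higher than naive in the sOVA host (1.18, adjusted p = 0.0157) and higher in the sOVA host than in the WT host (2.44, adjusted p = 0.00791). Within slide row 1 the host difference was 2.50. Within row 2, which held both dim arrays and where neither host detected the probe, it was -0.41. The intensity of the miR-195a-5p probe was 325 and 499 on sOVA host replicates 1 and 2, 15.4 on replicate 3 and 63.0 and 26.8 on the WT host arrays. The part of the low brightness of replicate 3 in this result was not tested. The miR-195a-5p probe followed that of miR-16-5p at r = 0.92 over the 7 arrays. Their log2 ratio on the same array was -8.47 to -8.44 in naive cells and -9.66 to -7.55 in the hosts (exact permutation p = 0.762). Whether the miR-195a-5p probe also read miR-16-5p was not tested.

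miR-497a-5p, by its 21-base probe, gave -7.86 and -7.44 in naive cells, -8.64 and -7.88 in the WT host, and -5.36, -5.45 and -6.20 in the sOVA host. The values of sOVA host replicates 1 and 2, the only host arrays that detected the probe, were the highest. The probe was detected on sOVA host replicates 1 and 2 and on naive replicate 2, so in no group on every array, and it was left out of the main test. In the fit with no detection filter, which covered 1756 features, miR-497a-5p was 1.98 above naive in the sOVA host (adjusted p = 0.0756) and 2.59 above the WT host (adjusted p = 0.617). The latter difference was 3.24 within slide row 1, while in row 2, which held both dim arrays, neither host detected the probe. miR-195a-5p and miR-497a-5p were thus both detected on sOVA host replicates 1 and 2 and on neither WT host array nor sOVA host replicate 3.

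The variant probes carry the seed with changes elsewhere, and are shown to set the position of each change beside detection. Positions count from the 5′ end of the closest mouse miRNA, whose base comes first:
UC1004767: tAGCAGCAcatcatggtttgca
UC1004775: tAGCAGCAcgtaaatattggtg
UC1004776: tAGCAGCAcgtaaatattggag
UC1004760: tAGCAGCAcagaatggtttgtg
UC1004777: tAGCAGCAtgtaaatattggag

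UC1004767 departs from miR-15b-5p by A20G, and UC1004775 and UC1004776 from miR-16-5p by C21T and C21A. These 3 were detected on all 7 arrays and followed the miRNA they resemble at r = 0.99 each. UC1004768, at A12C and G22A from miR-15a-5p and at A20G and C21T from miR-15b-5p, was also detected on all 7. UC1004760, at T11G from miR-15a-5p, and UC1004777, at C9T and C21A from miR-16-5p, were detected on none. Of the other variants, UC1005664 was detected on both naive arrays only and UC1005665 on none.

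The variants whose changes lie in the last 3 bases alone were thus all detected, with UC1004768 counted by its changes from miR-15b-5p. UC1004767, UC1004768, UC1004775 and UC1004776 were detected on every array and UC1005615 on both naive arrays. Whether they captured the miRNA they resemble or an RNA of their own was not tested. The differences from naive of the 4 variants detected on all arrays ranged from -0.33 to 0.20 in the WT host and from 0.02 to 0.58 in the sOVA host, and none was called. Without sOVA host replicate 3, UC1004767 was called higher in the sOVA host (0.99, adjusted p = 0.0275), as was UC1004775 (0.63, adjusted p = 0.0463). UC1005664, at T1A, G11T and A12C from miR-195a-5p, was -1.77 in the WT host (adjusted p = 0.0531) and -0.80 in the sOVA host (adjusted p = 0.222). No host array detected it. The WT host difference was called in 7 of 18 alternatives, among them the slide row as a block (adjusted p = 0.0424) and leaving out sOVA host replicate 3 (adjusted p = 0.0286), and within rows 1 and 2 it was -2.72 and -0.82.

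Between the 2 hosts, 0 of the 11 tested targets were called, as were 0 of all 344 features (0%). At an unadjusted p under 0.05 in limma, 0 of the 11 targets and 41 of the 344 features passed. The median difference of sOVA host minus WT host was 0.35 over the targets and -0.15 over all features. Of the 11 targets 1 was below 0, beside 60.2% of all features. The targets include variant probes that matched no mouse entry. Of these, UC1004767, UC1004775 and UC1004776 followed miR-15b-5p or miR-16-5p at r = 0.99 each. Whether they are separate signals was not tested. No host array detected UC1005615 or UC1005664, which were counted as above 0. Only UC1005664 did not overlap between the hosts, where 23.5% of all features did not. miR-322-5p differed by -0.25 (interval -0.90 to 0.40, adjusted p = 0.805), miR-16-5p by 0.27 (interval -0.77 to 1.31, adjusted p = 0.858) and miR-195a-5p by 1.51 (interval -0.60 to 3.62, adjusted p = 0.586). The interval of miR-322-5p is the narrowest of the 3, but it compares signals near background. Its probe was detected on 1 of 2 WT host arrays and on 1 of 3 sOVA host arrays. Without sOVA host replicate 3, miR-195a-5p and the variant probes UC1004775 and UC1004776 were called higher in the sOVA host (2.44, 0.75 and 0.77).

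miR-103 and miR-107, related miRNAs encoded in pantothenate kinase genes, start directly with the letters of the family's seed, so that these fall at bases 1 to 7, shown in capitals:
miR-103-3p: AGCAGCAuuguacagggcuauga
miR-107-3p: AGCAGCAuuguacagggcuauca

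Neither is a member by the rule. miR-103-3p gave -1.09 and -1.13 in naive cells, 0.09 and 0.00 in the WT host, and -0.08, -0.06 and 0.14 in the sOVA host, so every host array was above both naive arrays. It was higher than naive by 1.15 (SE 0.25, adjusted p = 0.025, limma) in the WT host and by 1.11 (SE 0.23, adjusted p = 0.0216) in the sOVA host. miR-107-3p differs by a single base near the 3′ end, so its signal cannot be separated here from that of miR-103-3p. The differences of miR-107-3p were 1.11 (adjusted p = 0.0274, limma) and 1.09 (adjusted p = 0.0224). These calls depended on the scaling. With the 75th percentile of all probes, which lies near the edge of detection, miR-103-3p differed by 0.64 (adjusted p = 0.608) and 0.29 (adjusted p = 0.808). With the median of probes detected on all arrays it differed by 0.89 (adjusted p = 0.15, limma) and 1.02 (adjusted p = 0.0689). The calls held in 10 and 12 of 19 alternatives for both.

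For miR-16-5p the features of closest pattern over the 7 arrays were the unmatched probes UC1006030 (Pearson r = 0.968) and UC1006035 (r = 0.936), miR-27a-3p (r = 0.921), miR-674-5p (r = 0.896) and UC1005686 (r = 0.882), of the same 208 candidates. Within the family, miR-16-5p followed miR-15a-5p at r = 0.90 and miR-15b-5p at r = 0.90, and miR-15a-5p followed miR-15b-5p at r = 0.71. These values share the arrays and their scaling and are a description.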

How the data were processed

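Per the file headers, the deposited scanner files give linear intensity per spot, from which Agilent Feature Extraction had subtracted background and spatial trend, with no normalization across arrays. The headers name version 9.5.1.1, and the submitters' processing notes name version 10.6. Per the labels' protocols RNA was extracted with Trizol and labelled with an Exiqon kit, and the design text names 250 ng. In the deposited table of the series, 0 of 1776 rows matched a family probe, so it was not used here.

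The target was the reverse complement of a probe without its last 10 T and leading G. Names came from RefSeq mature sequences, which 613 of 1874 probes matched. Spots free of outlier flags were averaged as log2, arrays were scaled to the 75th percentile of the 253 probes detected on all arrays, and nested targets were merged into 1756 features, each represented by its brightest probe. limma 3.58.1 (R 4.3.3) was fitted to all 7 arrays with group means, with Benjamini-Hochberg adjustment and a threshold of 0.05. The procedure was tested on simulated data with normal noise of the same spread for every feature. That simulation had no background floor and no dim arrays, so it does not cover probes at background in the hosts. Members named with every value were those called, those detected on all arrays and those that matched a mouse miRNA, and the 5 features of closest pattern were taken for miR-322-5p and for the brightest member. Members and lists were chosen with earlier results of these data known. Alternatives covered the scaling, background correction, detection filter, merging, spot average, slide row, replicate number, groups fitted and each array left out.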

Additional observations from a re-analysis of the deposited data

How the results depend on the processing

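Brightness of 2 arrays and the number of arrays limit these results. The lower level of miR-322-5p in both hosts was called under every alternative that tested it. The difference from naive was -4.31 to -2.86 in the WT host and -4.86 to -3.01 in the sOVA host. Counts of calls moved more. For the WT host against naive, 65 features were called, and 40 with the 75th percentile of all probes, 42 with normexp, 25 over features detected on all arrays, 17 with no detection filter, 110 with the slide row as a block, 130 with only the groups compared, 125 without both dim arrays and 19 to 159 when each array was left out. For the sOVA host, 74 were called, and 34 over features detected on all arrays, 26 with no filter, 127 with the slide row, 152 without both dim arrays and 14 to 128 with each array left out. Between hosts, 0 were called, and 47 without both dim arrays and 0 to 65 with each array left out. Family targets called in the WT host, 2 in the main analysis, were 1 with normexp, 0 over features detected on all arrays, where miR-322-5p was not tested, 1 with no filter, 4 without both dim arrays and 1 to 4 with each array left out. In the sOVA host these were 1, 0, 1, 6 and 1 to 6, and between hosts 1 without both dim arrays and 0 to 3. The replicate block gave 140 calls in the WT host and 27 between hosts, with 4 family targets called in the sOVA host and 1 between hosts. Deviations of same-numbered arrays correlated at -0.60 to 0.34, so the numbers were not taken as pairs. Those of the 8 pairs of arrays in the same slide row but different groups correlated at 0.18 to 0.61. The main analysis did not include the row, and row 2 held both dim arrays. In a group of 2 arrays the deviations mirror each other by construction, so these correlations are not independent of each other. The 75th percentile of all probes lies near the edge of detection. It moved the median of all features from 0.27 to -0.24 in the WT host and from 0.12 to -0.69 in the sOVA host. It gave 20 calls higher and 20 lower, and 25 and 44, in place of 45 and 20, and 54 and 20. The epithelial miR-200b-3p changed sign in the WT host with normexp (0.0366). Leaving out both dim arrays was chosen after the data had been seen.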
